A study of Macaca mulatta with 12 samples.

Results

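Unstimulated macrophages taken 19 months after transplant (Late CTL, 3 libraries) were compared with stimulated macrophages taken at 4.5 months (Early ACT, 3 libraries), so 6 of the 12 libraries of the series enter the comparison. The libraries were grouped by their titles. Of 32386 genes in the count table, 11826 were tested and 6599 had a mean of 10 or more counts per 1000000 (CPM, normalised) in Late CTL or in Early ACT, and these 6599 genes are described here. All 6599 passed the low-count filter. The floor was reached in both groups by 5793 genes, in Late CTL alone by 383 and in Early ACT alone by 423, and a gene that reached it in a single group had to differ in level. Among genes named below, TSLP, MMP12, NQO1, PLA2G4A and MCM4 were among those that reached it in Late CTL alone. CCL5, CXCL10, CTSZ, HILPDA and NEURL3 were among those that reached it in Early ACT alone. That such genes differ is no result by itself. The gene just inside the floor was IARS2, at 10.004 CPM in its higher group, and the gene just outside was TFDP1, at 9.99743 CPM.

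The cells came from blood of rhesus macaques (Macaca mulatta) transplanted with their own mobilized CD34+ cells, the blood-forming fraction, which had been edited with CRISPR/Cas9. The title of the study names TET2-mutant hematopoiesis as the source of the macrophages, a condition that both groups and all controls share. The labels give no edited allele, edited fraction or TET2 genotype for any library. Late CTL cells carried CD14 and CD163 but not CD16 at the sort and were kept for 8 h in wells of 250000 cells with no stimulus. Early ACT cells were sorted in the same way and kept for 8 h with lipopolysaccharide (LPS) at 100 ng/ml and interferon-gamma at 20 ng/ml, per the treatment protocol. The per-library treatment label of these cells names LPS alone. The groups differ in both time and stimulus, whose shares in a difference cannot be told apart in this comparison. Early CTL, the unstimulated cells at 4.5 months (3 libraries), is set beside them as the shared resting level. Whether the 3 libraries of a group stem from different animals or only from different wells is not stated in the labels, and the p-values rest on a spread between libraries that may be purely technical.

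LPS is a component of the wall of Gram-negative bacteria that binds CD14 and Toll-like receptor 4 (TLR4) on macrophages. The receptor signals through the adaptor MYD88 to NF-kB and AP-1, which switch on cytokine and chemokine genes, and through the adaptor TICAM1 to interferon beta, which acts on the cell itself through STAT2 and IRF9 to raise antiviral genes. Interferon-gamma acts through JAK1 and JAK2 and raises chemokines such as CXCL10, the immunoproteasome and antigen presentation. Feedback inhibitors such as NFKBIA, TNFAIP3 and the SOCS proteins are induced by the same signals.

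Library totals of the 6 libraries ran from 3910680 to 12972505 counts. Early ACT 1 (4602109 counts) stood apart from Early ACT 2 and 3: on the second principal component of the 6 libraries it lay at 39.3 against -29.5 and -28.2. Counts in Early ACT 1 differed from those in Early ACT 2 and 3 by a chi-square per degree of freedom of 25.6 and 26.4, against 2.77 between Early ACT 2 and 3. Where a count of genes called moves by over 1.5 times without a library, that value is given beside it. Late CTL libraries held counts in 17470 to 20213 genes and Early ACT libraries in 13883 to 16132. Genes with a mean under 1 CPM over the 12 libraries summed to 4293 to 5337 CPM in Late CTL and 1332 to 1429 CPM in Early ACT. The part of that difference in genes named below that lie near the floor was not tested.

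TET2 encodes an enzyme that starts DNA demethylation, and its level was read in every library first. Its level was 409, 416 and 411 CPM in the Late CTL libraries, 285, 343 and 338 in Early ACT and 245, 257 and 244 in Early CTL. The 3 Late CTL libraries lay above all Early ACT libraries, by a log2 difference of 0.35 ± 0.11 (SE, adjusted p = 0.0122, edgeR quasi-likelihood test with Benjamini-Hochberg adjustment, as for every adjusted p below). This call was lost with only the 6 libraries fitted (adjusted p = 0.0603) and with no low-count filter (adjusted p = 0.0712). Of 14 clonal hematopoiesis genes at the floor, 3 were higher in Late CTL, 2 were lower and 9 did not pass, beside 14.7% higher and 29.7% lower of the 6599 genes. These are small counts near those shares and show nothing particular to the list. The 2 lower genes became 4 without Early ACT 1, 0 without Late CTL 2 and 1 without Late CTL 3. JAK2, a kinase of cytokine receptors, was among the higher genes, at 202, 210.1 and 163 CPM against 84.7, 153 and 145 (log2 difference 0.57 ± 0.16, adjusted p = 0.00613). In Early CTL JAK2 was at 167, 188 and 175 CPM, and its difference between Late CTL and Early CTL did not pass (0.11, adjusted p = 0.588). SF3B1, a splicing factor, and ASXL1, a chromatin regulator, did not pass, with log2 differences of 0.09 and -0.12.

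Markers of the sort were present in both groups. CD14, the LPS co-receptor, was at 1412, 1380.1 and 1726 CPM in Late CTL and 3218, 2189 and 2279.6 in Early ACT, and lower in Late CTL by a log2 difference of -0.77 ± 0.13 (adjusted p = 6.52e-05). CD163, the haptoglobin-hemoglobin scavenger receptor, was at 569, 591 and 598 against 1522, 1227 and 1191 CPM, also lower (-1.16 ± 0.11, adjusted p = 2.99e-08). FCGR3, the gene of the CD16 receptor against which the cells were sorted, was at 38.8, 42.1 and 49.02 CPM in Late CTL and 31.2, 40.3 and 36.8 in Early ACT, and the difference did not pass (0.26 ± 0.15, adjusted p = 0.183). Mature macrophage markers were low: MRC1, the mannose receptor, averaged 3.29 CPM in Late CTL and 1.52 in Early ACT, and the complement gene C1QC 0.386 and 0.0853. In bulk RNA, fewer cells of a type and less RNA per cell cannot be told apart.

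The summed level of 10 measured CD14 monocyte markers was 6499 to 6997 CPM in Late CTL, 10960.5 to 11295 in Early ACT and 11459 to 12039 in Early CTL. Both early groups lay above Late CTL with no overlap. S100A9 and S100A8, alarmins abundant in fresh monocytes, made the widest gaps among the markers of this list at the floor of 10 CPM. S100A9 was at 99.9, 97.2 and 137 CPM in Late CTL against 958, 584 and 635 in Early ACT (log2 difference -2.70 ± 0.16, adjusted p = 5.56e-12), and S100A8 at 94.1, 91.5 and 117 against 627, 447 and 457 (-2.33 ± 0.14, adjusted p = 8.16e-12). Neither gene passed in Early ACT against Early CTL (log2 differences 0.17 and 0.08), while both were lower in Late CTL than in Early CTL (-2.53 and -2.25). The 10 measured macrophage markers summed to 2896 to 3142 CPM in Late CTL and 4577 to 5396 in Early ACT. Within that list CSF1R, the receptor of the growth factor CSF1, was lower in Late CTL (-0.88 ± 0.14, adjusted p = 2.10e-05), while APOE, a lipid carrier, was higher, at 15.4, 27.04 and 13.2 CPM against 4.46, 4.25 and 4.52 (2.09 ± 0.30, adjusted p = 7.40e-06).

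Markers of other blood cells were in part near 0 and in part clearly detected. The 10 measured T cell markers summed to 328 to 363 CPM in Late CTL and 258 to 394 in Early ACT, nearly all of it IL7R and CD4, with 7 of the 10 averaging under 1 CPM over the 6 libraries, among them CD3E (0.0841 and 0.25 CPM). The 9 measured B cell markers summed to 8.58 to 11.5 CPM in Late CTL and 7.25 to 8.42 in Early ACT, with 5 of the 9 under 1 CPM. Natural killer cell markers (8 measured) summed to 53.8 to 61.3 CPM in Late CTL and 56.6 to 83.4 in Early ACT, with 5 of the 8 under 1 CPM, among them KLRF1 (0.19 and 0.142). The other 3 were NCAM1, at 36.99 CPM in Late CTL and 50.7 in Early ACT, NCR1 at 9.34 and 10.8, and GZMB at 9.28 and 6.75. Neutrophil markers (14 measured) summed to 2018 to 2083 and 2099 to 2908 CPM, nearly all of it MMP9, CSF3R and CAMP, which monocytes also express, while ELANE was at 0.829 and 0.0283 CPM. Platelet markers (7 measured) summed to 355 to 420.0 and 467 to 632 CPM, most of it TUBB1. In that list TREML1 was at 22.01 and 47.4 CPM and PPBP at 1.8 and 1.84. Conventional dendritic cell markers (10 measured) summed to 4119 to 4788 and 4990.4 to 6586 CPM, nearly all of it IDO1, with CD1C at 47.7 and 54.002, CLEC10A at 9.43 and 10.2, and 5 of the 10 under 1 CPM. Plasmacytoid dendritic cell markers (5 measured) summed to 37.9 to 48.7 and 38.8 to 47.8 CPM, most of it TCF4 and GZMB, with CLEC4C at 0.32 and 0.0284. The part of such cells in the results below was not tested. CD16 monocyte markers (8 measured) summed to 235 to 260.0 and 344 to 391 CPM, and erythroid markers (6 measured) to 1.26 to 3.79 and 0 to 0.255 CPM, with HBA1 at 0 in every one of the 6 libraries.

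Of the 6599 genes, 971 (14.7%) were higher and 1963 (29.7%) lower in Late CTL than in Early ACT at an adjusted p under 0.05, and 3665 did not pass. Over all 11826 tested genes 17.6% were higher and 18.5% lower. The difference was over 2-fold for 145 of the higher and 421 of the lower genes. The libraries of the groups did not overlap for 3414 genes (51.7%, against 44.9% of all tested genes). For 4893 genes (74.1%, against 49.9% of all tested genes) the whole 95% interval of the log2 difference lay between -1 and 1, and such genes are called within 2-fold. The counts of each list below stand beside these shares, and a share near them is not a result about the list. A gene can be both within 2-fold and called, as 1366 were, and 3527 were within 2-fold and not called. The median log2 difference was -0.10 over the 6599 genes and 0.05 over all 11826 tested genes. The lower share grew with level: 24.1% of 2784 genes averaging under 30 CPM were lower and 15.9% higher, against 46.0% lower and 6.21% higher among 161 genes at 1000 CPM or more. Of all calls 33.1% were in the higher direction, and 48.8% with upper-quartile scaling, which moved the median of the tested genes from 0.05 to 0.16. With only the 6 libraries fitted, 627 genes were higher and 1302 lower.

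**Figure D1:**
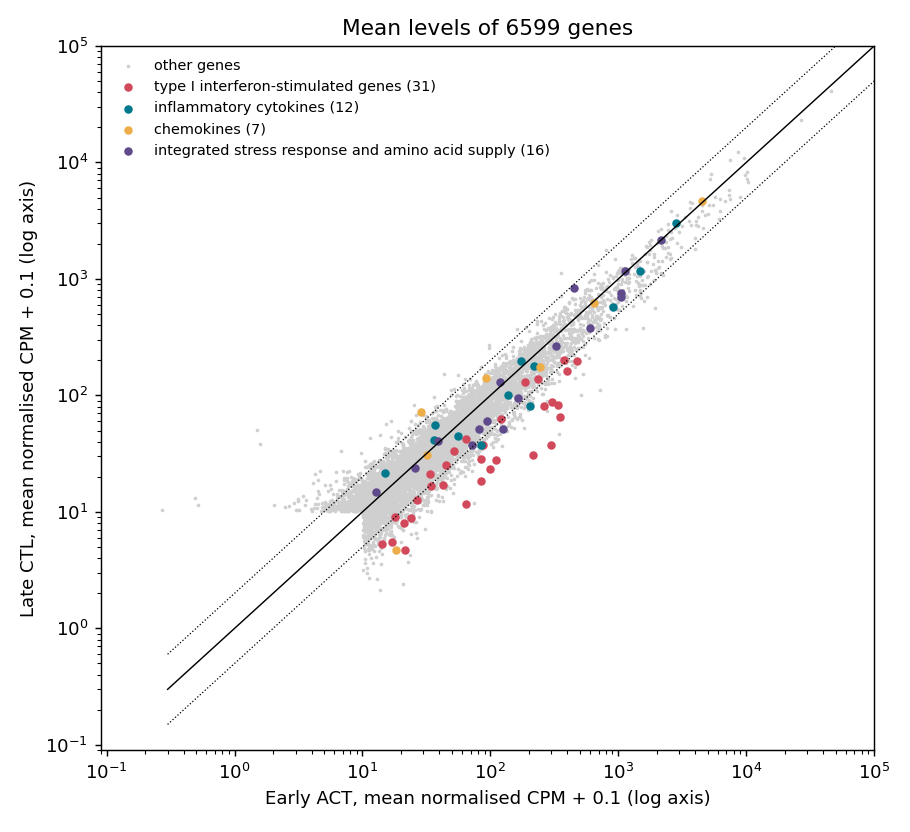
Mean normalised CPM plus 0.1 of 6599 genes in Early ACT (horizontal, log axis) and Late CTL (vertical, log axis), with equality as a solid line, 2-fold differences as dotted lines, and 4 gene lists in colour (numbers of genes in brackets; list members named only by the authors' tables, such as IL1B, are drawn as other genes). The 31 type I interferon-stimulated genes all lie under the line of equality, while cytokine and chemokine genes lie on both sides of it.

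Among inflammatory cytokine genes, Late CTL cells expressed IL1B, TNF and VEGFA within 2-fold of stimulated early cells, with no call. IL36G, LIF and IL1A were above the stimulated early level, and IL6, CSF3, IL23A and OSM below it. Of these called genes LIF, IL1A, CSF3 and IL23A were also within 2-fold. Of 12 cytokine genes at the floor, 1 was higher (LIF), 4 were lower and 7 did not pass, and 10 were within 2-fold. Of the 6599 genes 14.7% were higher, 29.7% lower and 74.1% within 2-fold. The median log2 difference of the 12 genes was -0.31. Without Early ACT 3 the higher count was 2. Names of IL1B, IL1A and IL36G come from the authors' deposited tables alone, and with such names 3 of 15 genes were higher and 4 lower. In Early ACT against Early CTL, where 7.36% of the 6599 genes were higher and 3.46% lower (4.57% and 2.66% of all tested genes), 10 of the 12 genes were higher. In Late CTL against Early CTL, where 18.5% were higher and 28.4% lower (20.9% and 19.8% of all tested genes), 11 were higher and 1 lower. These side-by-side comparisons share the Early CTL libraries with each other, and the Early ACT or Late CTL libraries with the main comparison.

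IL1B, which encodes interleukin 1 beta, was at 40185, 36216 and 46078 CPM in Late CTL, 51606, 42513 and 43053 in Early ACT and 12386, 12688 and 13708 in Early CTL. Both groups lay above every Early CTL library and overlapped each other, with a log2 difference of -0.16 ± 0.11 (95% interval -0.39 to 0.06, adjusted p = 0.245). TNF, tumor necrosis factor, was at 1100.4, 1102 and 1323 CPM in Late CTL, 1846, 1261 and 1296 in Early ACT and 384, 385 and 405 in Early CTL. Late CTL 3 lay above Early ACT 2 and 3, so the groups overlapped, and the difference of -0.32 ± 0.13 did not pass (adjusted p = 0.0517). It passed as lower in Late CTL without Late CTL 3 (-0.42, adjusted p = 0.0185), without Early ACT 2 (-0.44, 0.0138), without Early ACT 3 (-0.42, 0.0176) and with no low-count filter (-0.37, 0.0131). VEGFA, an angiogenic growth factor, was at 3098, 3172 and 2745 CPM in Late CTL, 2894, 2768 and 2799 in Early ACT and 1819, 1795 and 1671 in Early CTL (0.09 ± 0.10, 95% interval -0.12 to 0.30). IL10, an anti-inflammatory cytokine, and IL1RN, the IL-1 receptor antagonist, were likewise within 2-fold (log2 differences 0.20 and 0.19).

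IL6, a cytokine of the acute phase response, lay between the resting and the stimulated level. It was at 81.2, 77.5 and 83.9 CPM in Late CTL, 199, 202 and 215 in Early ACT and 34.04, 29.1 and 30.8 in Early CTL, so that the 3 groups formed separate steps (Late CTL against Early ACT -1.34 ± 0.12, adjusted p = 7.67e-09). CSF3, the granulocyte growth factor, took the same order, at 605, 531 and 603 CPM in Late CTL, 738, 1017 and 967 in Early ACT and 177, 175 and 168 in Early CTL (-0.65 ± 0.12, adjusted p = 0.000143). IL23A, a subunit of interleukin 23, was at 98.9, 95.04 and 109 CPM in Late CTL, 144, 133 and 135 in Early ACT and 41.1, 38.99 and 46.5 in Early CTL (-0.44 ± 0.12, adjusted p = 0.00479), and this call was lost with only the 6 libraries fitted (adjusted p = 0.0552). OSM, oncostatin M, was lower in Late CTL than in both early groups, at 39.3, 42.4 and 31.6 CPM against 98.1, 80.7 and 74.7 in Early ACT and 88.1, 83.7 and 85.6 in Early CTL (-1.15 ± 0.14, adjusted p = 1.35e-06).

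A few cytokine genes were higher in resting late cells than in stimulated early cells. IL36G, an IL-1 family cytokine, was at 78.4, 76.7 and 91.97 CPM in Late CTL, 19.1, 27.3 and 29.4 in Early ACT and 11.98, 11.3 and 13.2 in Early CTL, 3.2-fold higher in Late CTL than in Early ACT (1.68 ± 0.15, adjusted p = 9.62e-09). TSLP, a cytokine best known from epithelium, was at 32.3, 32.6 and 35.4 CPM in Late CTL, 2.23, 8.41 and 9.3 in Early ACT and 3.21, 1.95 and 2.22 in Early CTL (2.19 ± 0.25, adjusted p = 4.78e-07). LIF, an IL-6 family cytokine, was at 61.03, 56.3 and 48.7 CPM in Late CTL, 38.1, 38.98 and 33.6 in Early ACT and 13.1, 13.96 and 11.7 in Early CTL (0.58 ± 0.15, adjusted p = 0.00338). For all 3 genes every Late CTL library lay above every Early ACT library. TSLP reached the floor of 10 CPM in Late CTL alone, so some difference in its level was set by the floor. IL1A, which encodes interleukin 1 alpha, was at 4657, 4555 and 4496 CPM in Late CTL and 2819, 3852 and 4129 in Early ACT (0.34 ± 0.12, adjusted p = 0.0256). The IL1A call was lost without Late CTL 1 (adjusted p = 0.0817), without Late CTL 2 (0.0652) and with only the 6 libraries fitted (0.0905). The authors' deposited tables, on build Mmul_8.0.1, place IL36G on chromosome 13 from 107975822 to 107982848, IL1A on chromosome 13 from 107765464 to 107774298, LIF on chromosome 10 from 72078179 to 72088780 and TSLP on chromosome 6 from 108543259 to 108549978.

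Among chemokine genes, the neutrophil attractant CXCL1 and CCL20 were within 2-fold of the stimulated level in Late CTL and did not pass. CXCL2, CCL2 and CCL18 were above it, CXCL2 and CCL2 by less than 2-fold. CXCL10 and CCL5, which draw T cells, were below it, and both reached the floor in Early ACT alone. Of 7 chemokine genes at the floor, 2 were higher (CCL2 and CCL18), 2 were lower (CXCL10 and CXCL16) and 3 did not pass. CXCL16 was lower by a log2 difference of -0.49. The median log2 difference of the 7 genes was -0.07, and it became 0.04 with upper-quartile scaling. Of the 6599 genes 14.7% were higher and 29.7% lower. CXCL2, CCL3 and CCL5 have names from the authors' tables alone and are not among the 7. With such names 3 of 10 were higher and 3 lower. CXCL1 was at 4593, 4308 and 4978 CPM in Late CTL, 3832, 4664 and 4976 in Early ACT and 1153, 1118 and 1226 in Early CTL (0.04 ± 0.11, 95% interval -0.19 to 0.27). CCL20, which binds CCR6, was at 589, 627 and 645 CPM in Late CTL, 593, 671 and 684 in Early ACT and 189.5, 202 and 214 in Early CTL (-0.07 ± 0.11, 95% interval -0.29 to 0.16). In both genes the Late CTL and Early ACT libraries overlapped and lay well above Early CTL.

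CCL3, a ligand of CCR1, was within 2-fold as well (-0.19 ± 0.11, adjusted p = 0.17), at 1856, 1958 and 2371 CPM in Late CTL and 2269.7, 2389 and 2391 in Early ACT. It passed as lower without Late CTL 3 (-0.31, adjusted p = 0.0232) and without Early ACT 1 (-0.23, 0.0137). CXCL2, a neutrophil attractant named by the authors' tables, was at 10176, 10793 and 10703 CPM in Late CTL, 5287, 8360.0 and 8768 in Early ACT and 1861, 1929 and 1836 in Early CTL (0.50 ± 0.13, adjusted p = 0.00479). CCL2, the main monocyte attractant, was at 129, 141 and 156 CPM in Late CTL, 75.5, 105 and 98.1 in Early ACT and 26.7, 26.1 and 30.03 in Early CTL (0.60 ± 0.13, adjusted p = 0.000941). Its Late CTL libraries lay above every Early ACT library, as did those of CXCL2. CCL18, a chemokine linked to alternatively activated macrophages, was at 73.4, 64.3 and 76.3 CPM in Late CTL, 32.9, 27.3 and 25.6 in Early ACT and 23.4, 20.5 and 21.9 in Early CTL (1.34 ± 0.14, adjusted p = 1.09e-07), and it did not pass on early stimulation (0.37).

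CXCL10, an interferon-induced ligand of CXCR3, was at 6.81, 4.24 and 2.88 CPM in Late CTL, 14.4, 19.4 and 21.3 in Early ACT and 31.7, 25.5 and 25.1 in Early CTL. It was lower in Late CTL than in Early ACT (-2.08 ± 0.27, adjusted p = 1.99e-06), and the difference of Early ACT from Early CTL did not pass (-0.55, adjusted p = 0.136). CCL5, a T cell attractant, was at 8.83, 7.42 and 8.65 CPM in Late CTL, 23.3, 24.2 and 23.9 in Early ACT and 7.74, 10.8 and 9.81 in Early CTL, so that Late CTL lay below the stimulated level (-1.53 ± 0.19, adjusted p = 1.60e-06), and its difference from Early CTL did not pass (-0.21, adjusted p = 0.427). The authors' deposited tables place CXCL1 on chromosome 5 from 60629651 to 60631038, CXCL10 on chromosome 5 from 58528129 to 58529649, CCL20 on chromosome 12 from 110179626 to 110183532 and CCL5 on chromosome 16 from 29829331 to 29836801.

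**Figure D2:**
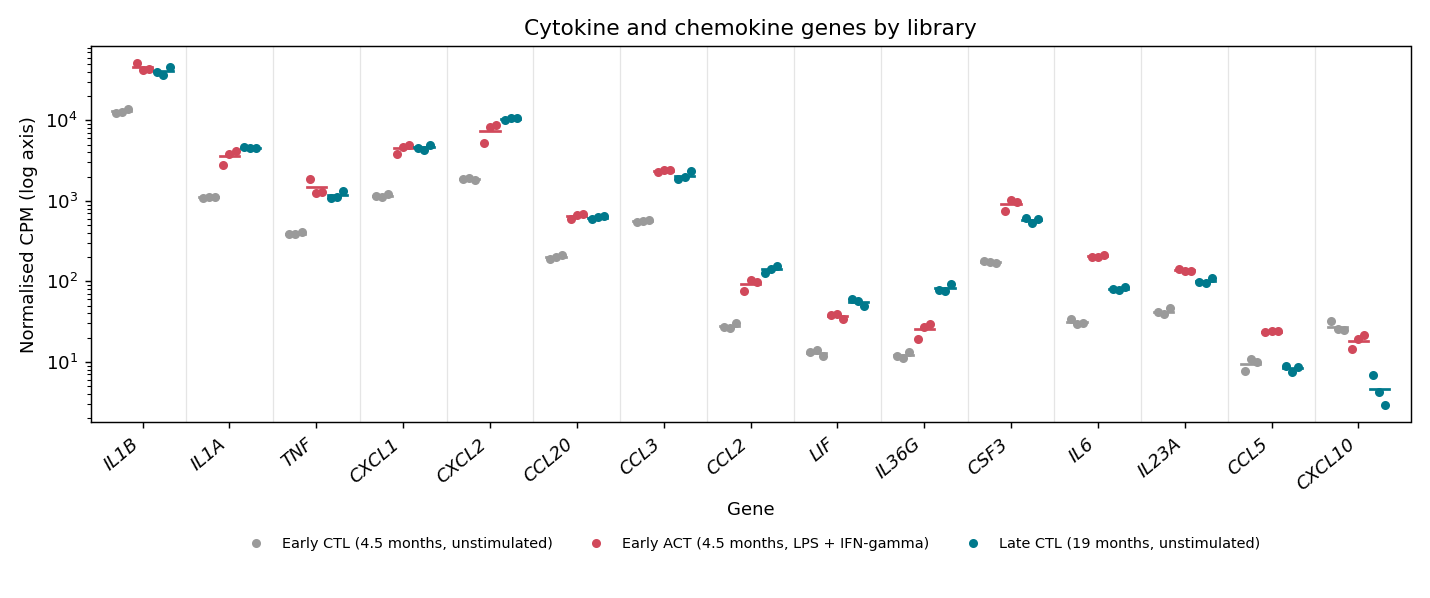
Normalised CPM (log axis) of 15 cytokine and chemokine genes in each library of Early CTL, Early ACT and Late CTL, with points for libraries and lines for group means. From IL1B to IL36G both Late CTL and Early ACT libraries lie above Early CTL, and from CSF3 to CXCL10 the Late CTL libraries lie below every Early ACT library.

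Among genes of LPS sensing the adaptors MYD88 and TICAM1 were lower in Late CTL, while TLR4 was within 2-fold. Of 15 at the floor, 6 were lower, 2 higher and 7 did not pass, with a median log2 difference of -0.24. Beside 29.7% lower and 14.7% higher of the 6599 genes, these counts are not a result about the list, and its genes are described singly. MYD88, the adaptor of most Toll-like receptors, was at 119.8, 139 and 144 CPM in Late CTL, 416, 301 and 316 in Early ACT and 407, 385 and 414 in Early CTL (-1.35 ± 0.13, adjusted p = 1.69e-08). TICAM1, the adaptor that leads to interferon beta, and IRAK1, a kinase downstream of MYD88, were also lower (-0.85 and -1.11), as was TREM1, an amplifier of LPS signals (-0.87). TLR4 itself did not pass (-0.20 ± 0.11, adjusted p = 0.176), though without Early ACT 1 it was lower (-0.32, adjusted p = 0.000778). TLR5, the flagellin receptor, and TLR1, a partner of TLR2, were the 2 higher genes, at log2 differences of 0.79 and 1.02.

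NF-kB genes and the feedback inhibitors were mostly lower in Late CTL. Of 22 NF-kB genes 15 were lower and 2 higher, beside 29.7% and 14.7% of the 6599 genes, with a median log2 difference of -0.56. In Early ACT over Early CTL 7 of the 22 had risen, beside 7.36% of the 6599 genes. The 2 higher genes became 1 without Late CTL 1, Early ACT 2 or Early ACT 3. NFKBIA, which holds NF-kB in the cytoplasm and is itself an NF-kB target, was at 6377, 6481 and 7668 CPM in Late CTL, 12044, 9358 and 9508 in Early ACT and 5841, 5758 and 6215 in Early CTL (-0.59 ± 0.11, adjusted p = 0.000252). Its difference between Late CTL and Early CTL did not pass (0.20, adjusted p = 0.15). RELB, a subunit of the noncanonical pathway, and IKBKE, a kinase of interferon induction, were lower (-1.06 and -1.38). The A20-binding inhibitors TNIP2, TNIP3 and TNIP1 were lower by similar amounts (-1.25, -0.99 and -0.97). CYLD, a deubiquitinase that restrains NF-kB, was higher, at 806, 814 and 787 CPM against 459, 667 and 661 (0.43 ± 0.12, adjusted p = 0.00793). TRAF1, an NF-kB target, was within 2-fold, at 3386, 3312 and 2717 CPM in Late CTL, 3962, 3351 and 3334 in Early ACT and 1931, 1842 and 1690.4 in Early CTL (95% interval -0.42 to 0.06).

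Of 14 feedback genes 9 were lower and 0 higher, beside 29.7% and 14.7% of the 6599 genes. With the authors' names 14 of 22 were lower and 2 higher, and without Late CTL 3 the higher count of the 14 genes was 1. SOCS3, an inhibitor of IL-6 family signals, was at 139, 129 and 119 CPM in Late CTL, 330.1, 291 and 269.8 in Early ACT and 189, 196 and 176 in Early CTL (-1.20 ± 0.12, adjusted p = 5.44e-08), so late cells lay below both early groups. SOCS1, an inhibitor of interferon signals, was at 13.6, 14.4 and 15.03 CPM in Late CTL, 29.96, 30.4 and 26.1 in Early ACT and 28.3, 30.1 and 28.8 in Early CTL (-0.99 ± 0.16, adjusted p = 3.59e-05) and did not pass on early stimulation (-0.02, adjusted p = 0.971). ACOD1, which makes itaconate, was at 5085, 4602 and 5506 CPM in Late CTL, 9075, 8748 and 8877 in Early ACT and 4327, 4283 and 4747 in Early CTL (-0.81 ± 0.10, adjusted p = 1.33e-06), and its difference from Early CTL did not pass (0.19, adjusted p = 0.148). ZC3H12A, a nuclease that degrades cytokine messages, was lower (-0.73), as was ZFP36, which destabilizes TNF message (-0.76). The phosphatase genes DUSP10 and DUSP6 were within 2-fold (0.02 and 0.12), and SOCS2 was higher (0.94 ± 0.15, adjusted p = 3.39e-05).

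Many inflammasome genes were lower in Late CTL, while IL1B did not pass. Of 15 genes 10 were lower and 0 higher, beside 29.7% and 14.7% of the 6599 genes, with a median of -0.41. The lower count was 6 with upper-quartile scaling and 4 with only the 6 libraries fitted. Under these settings 1532 and 1302 of the 6599 genes were lower, so the list count moved towards the share of all genes. The higher count was 1 without Late CTL 3, Early ACT 2 or Early ACT 3. NLRP3, the sensor of the main LPS-primed inflammasome, was at 342, 317 and 334 CPM in Late CTL, 882, 739 and 729 in Early ACT and 234, 243 and 243 in Early CTL. The groups did not overlap, and Late CTL lay between the early groups (against Early ACT -1.24 ± 0.11, adjusted p = 6.34e-09, and against Early CTL 0.46 ± 0.11, adjusted p = 0.00135). The adaptor PYCARD, named by the authors' tables, was lower (-1.10), as was GSDMD, which forms the pore that releases IL-1 (-1.08). IL1R2, the decoy IL-1 receptor, was at 41.6, 38.7 and 44.8 CPM against 85.4, 66.6 and 66.8 (-0.80 ± 0.14, adjusted p = 8.88e-05). TXNIP, a thioredoxin inhibitor that falls with stimulation, was low in both groups, at 78.4, 82.3 and 78.8 CPM in Late CTL and 87.4, 94.3 and 95.6 in Early ACT against 392, 393 and 439 in Early CTL. Its difference between Late CTL and Early ACT was -0.21 ± 0.11 (adjusted p = 0.148, and 0.021 without Early ACT 1, as lower). The authors' deposited tables place NLRP3 on chromosome 1 from 224050419 to 224079599 and TXNIP on chromosome 1 from 121623743 to 121630937.

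The type I interferon-stimulated genes had the lowest median of the 22 pathway lists. All 31 type I interferon-stimulated genes at the floor were lower in Late CTL than in Early ACT, beside 29.7% of the 6599 genes, with a median log2 difference of -1.45 and a range of -2.98 to -0.51. The libraries of the groups did not overlap for any of the 31, against 51.7% of the 6599 genes. Within 2-fold were 4 of the 31, against 74.1%. Of the 31, 6 reached the floor in Early ACT alone. On early stimulation 11 of the 31 rose, beside 7.36% of the 6599 genes, with a median of 0.36. In Late CTL against Early CTL 27 were lower and 1 higher, beside 28.4% and 18.5%, with a median of -0.99. For most of these genes Late CTL thus lay below the early resting level too.

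OASL, an antiviral protein of the oligoadenylate synthetase family, was at 36.1, 33.5 and 42.8 CPM in Late CTL, 374, 251 and 264 in Early ACT and 123, 123 and 142 in Early CTL, so that the Early ACT level was 7.88 times that of Late CTL (-2.98 ± 0.15, adjusted p = 5.14e-13). IFIT2 and IFIT3, which block translation of viral RNA, had the same order. IFIT2 was at 42.9, 42.5 and 53.4 CPM in Late CTL, 326, 369 and 341 in Early ACT and 189, 211 and 227 in Early CTL (-2.90 ± 0.14, adjusted p = 1.57e-13), and IFIT3 at 65.1, 58.6 and 73.3 CPM in Late CTL, 315, 359.7 and 369 in Early ACT and 179, 186 and 210.3 in Early CTL (-2.41 ± 0.13, adjusted p = 5.97e-13). OAS2, which senses viral RNA and activates RNase L, was at 33.04, 32.3 and 27.3 CPM in Late CTL, 203, 231 and 210.3 in Early ACT and 145, 142 and 145 in Early CTL (-2.80 ± 0.15, adjusted p = 7.02e-13). In each of these genes the 3 groups formed separate steps, with Late CTL lowest and Early ACT highest. MX1, an antiviral GTPase, was at 76.9, 85.8 and 84.4 CPM in Late CTL and 348, 334 and 331 in Early ACT (-2.03 ± 0.11, adjusted p = 1.26e-12). IFI6 and HELZ2, interferon-induced genes, differed by -2.48 and -2.67, and IFIT5 by -2.21. The smallest gaps of the list were those of TRIM22 (-0.51 ± 0.12, adjusted p = 0.00153), SAMD9L (-0.61), RSAD2, the antiviral enzyme viperin (-0.65), and SP100, a nuclear body protein (-0.76). RSAD2 was at 25.98, 42.5 and 31.3 CPM in Late CTL and 39.6, 32.1 and 33.4 in Early CTL, a difference that did not pass (-0.05, adjusted p = 0.832). The authors' deposited tables place OASL on chromosome 11 from 121274193 to 121294071, IFIT2 on chromosome 9 from 84486216 to 84487782, IFIT3 on chromosome 9 from 84503524 to 84514315 and IFI6 on chromosome 1 from 26545185 to 26548123.

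Most genes of the interferon-gamma response were lower in Late CTL. Of 20 genes at the floor 15 were lower in Late CTL than in Early ACT and 5 did not pass, with a median of -0.56. Of the 6599 genes 29.7% were lower. In Early ACT against Early CTL 3 of the 20 were higher and 1 lower, beside 7.36% and 3.46% of the 6599 genes. IRF1, an interferon-induced transcription factor, was at 436, 435 and 469.7 CPM in Late CTL, 863, 646 and 655 in Early ACT and 689, 672 and 654 in Early CTL (-0.69 ± 0.12, adjusted p = 8.25e-05, on early stimulation 0.10). RNF213, an antimicrobial ubiquitin ligase, was at 77.2, 73.8 and 69.8 CPM in Late CTL, 302, 264 and 263 in Early ACT and 218, 189 and 178 in Early CTL (-1.91 ± 0.13, adjusted p = 3.02e-11). CIITA, the activator of MHC class II genes, and ICAM1, an adhesion molecule, were within 2-fold (-0.15 and -0.17). IDO1, which degrades tryptophan, was at 4172, 4053 and 4721 CPM in Late CTL, 6506, 4916 and 4933 in Early ACT and 3548, 3641 and 3991 in Early CTL. Its call as lower in Late CTL (-0.34 ± 0.11, adjusted p = 0.024) was lost without Late CTL 1 (0.0601) or Late CTL 2 (0.0967).

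Most genes of the interferon signalling machinery were lower. Of 21 receptors, STATs and IRFs 14 were lower and 1, JAK2, was higher, beside 29.7% and 14.7% of the 6599 genes, with a median of -0.61. STAT2 and IRF9, parts of the complex that type I interferon activates, were lower (-1.17 ± 0.16, adjusted p = 3.72e-06, and -0.81 ± 0.12, adjusted p = 1.28e-05). IRF5, which drives inflammatory cytokine genes, was at 58.5, 53.2 and 48.7 CPM against 119, 99.01 and 95.1 (-0.96 ± 0.13, adjusted p = 2.88e-06). JAK1, the kinase shared by interferon receptors, and IFNAR1, a chain of the type I receptor, were within 2-fold (0.04 and -0.02). Of 10 immunoproteasome and MHC class I loading genes 4 were lower, 1 was higher and 5 did not pass, near the shares of the 6599 genes (29.7% lower and 14.7% higher), and no member of this list had passed on early stimulation. The higher count was 0 without Late CTL 1, Late CTL 2 or Early ACT 1. PSMB9, an immunoproteasome subunit, was at 10.6, 11.5 and 13.8 CPM in Late CTL, 37.6, 27.8 and 26.96 in Early ACT and 35.2, 34.7 and 37.03 in Early CTL (-1.33 ± 0.19, adjusted p = 8.89e-06). PSMB8, another subunit, and NLRC5, the activator of MHC class I genes, were also lower (-1.28 and -1.24), while the chaperones CALR and PDIA3 were within 2-fold.

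**Figure D3:**
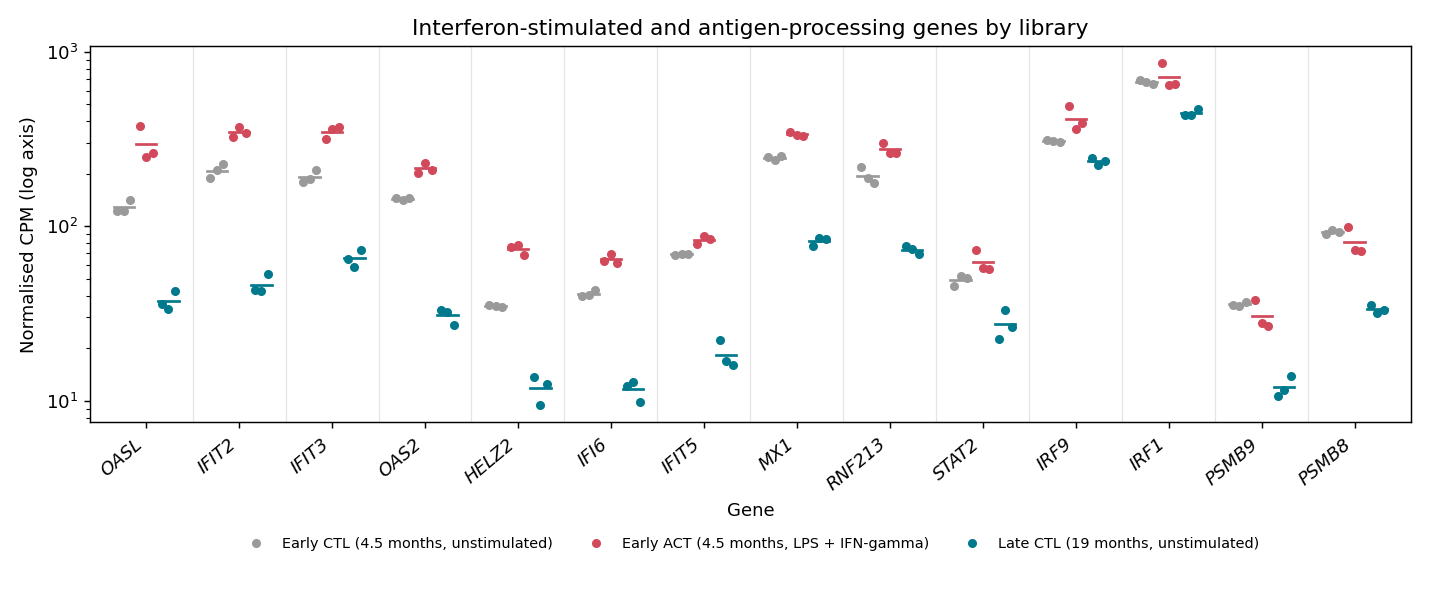
Normalised CPM (log axis) of 14 interferon-stimulated and antigen-processing genes in each library of Early CTL, Early ACT and Late CTL, with lines for group means. The 3 Late CTL libraries are the lowest of the 9 for all 14 genes.

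Costimulatory and adhesion genes were mixed: 6 of 14 were lower, 1 was higher and 7 did not pass. Of the 6599 genes 29.7% were lower and 14.7% higher. Without Late CTL 3, Early ACT 2 or Early ACT 3 none of the 14 was higher. CD83, a maturation marker, was at 2074, 2093 and 2312 CPM in Late CTL and 2110.5, 2192 and 2141 in Early ACT (95% interval -0.20 to 0.21), and ICOSLG and CD58 were also within 2-fold (-0.03 and 0.04). CD80, which binds CD28, was lower (-0.96 ± 0.21, adjusted p = 0.000916). The leukocyte integrins ITGAM and ITGB2 were lower (-1.07 and -1.19), and neither passed on early stimulation (-0.02 and -0.07). PECAM1, an adhesion molecule of transmigrating monocytes, was at 23.5, 22.7 and 26.9 CPM in Late CTL, 73.8, 57.7 and 62.2 in Early ACT and 93.2, 88.7 and 94.2 in Early CTL (-1.40 ± 0.14, adjusted p = 5.44e-08). CD274, the ligand of PD-1, was at 51.95, 39.2 and 58.9 CPM against 58.2, 76.2 and 74.1, and its call as lower (-0.49 ± 0.15, adjusted p = 0.0149) was lost without Late CTL 2 (adjusted p = 0.123).

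Several secreted protease genes were within 2-fold of the stimulated level or above it in late resting cells, among them MMP1, MMP10 and MMP12, while PLAUR, ADAM8 and ADAM19 were below it. Of 25 matrix protease and coagulation genes 8 were higher, 9 lower and 8 did not pass, beside 14.7% higher and 29.7% lower of the 6599 genes. The higher count was 5 without Late CTL 2. MMP1, a collagenase, was at 1212, 1219 and 1280.2 CPM in Late CTL, 922, 1074 and 1106 in Early ACT and 445, 441 and 479.7 in Early CTL. The Late CTL libraries lay above those of Early ACT, but the difference of 0.26 ± 0.11 did not pass (adjusted p = 0.058), while it did with RLE scaling (0.0304), upper-quartile scaling (0.00892) and DESeq2 (0.00578). MMP10, a stromelysin, was at 801, 759.8 and 839.8 CPM in Late CTL, 515, 559.9 and 585 in Early ACT and 188, 198 and 212 in Early CTL (0.53 ± 0.11, adjusted p = 0.0004), and MMP12, macrophage elastase, at 15.6, 15.1 and 14.9 CPM in Late CTL, 7.43, 5.6 and 6.31 in Early ACT and 2.05, 2.23 and 2.64 in Early CTL (1.27 ± 0.21, adjusted p = 4.49e-05). In both genes the groups formed separate steps, with Late CTL highest, and MMP12 reached the floor in Late CTL alone. TFPI2, a protease inhibitor, and SPP1, osteopontin, were higher as well (0.54 and 2.11). On the other side PLAUR, the urokinase receptor, was at 662, 665 and 840.4 CPM in Late CTL, 1741, 1185 and 1202 in Early ACT and 399.8, 418 and 452 in Early CTL (-0.93 ± 0.13, adjusted p = 9.19e-06). ADAM8 and ADAM19, membrane-bound proteases, were lower (-1.35 and -1.33). Neither passed on early stimulation (0.17 and 0.07), and both were lower in Late CTL than in Early CTL (-1.18 and -1.26). ADAM17, which sheds TNF, was within 2-fold (-0.08). The authors' deposited tables place MMP1 on chromosome 14 from 95695401 to 95705701, MMP10 on chromosome 14 from 95676230 to 95686357 and MMP12 on chromosome 14 from 95768641 to 95782123.

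PTGS2, the inducible cyclooxygenase, was at 8267, 8357 and 7107 CPM in Late CTL, 3556, 6253 and 6172 in Early ACT and 1519, 1572 and 1508 in Early CTL. Every Late CTL library lay above every Early ACT library (0.57 ± 0.15, adjusted p = 0.0036). PLA2G4A, which frees the arachidonic acid that PTGS2 uses, was higher too, at 21.9, 20.7 and 15.8 CPM against 5.45, 9.34 and 10.4 (1.14 ± 0.26, adjusted p = 0.00128). Of the leukotriene genes ALOX5 and ALOX5AP were lower, while LTA4H, leukotriene A4 hydrolase, was within 2-fold and did not pass (0.11 ± 0.13, adjusted p = 0.526), at 67.6, 67.9 and 72.5 CPM in Late CTL and 57.2, 64.5 and 70.1 in Early ACT. ALOX5, 5-lipoxygenase, was at 16.1, 22.9 and 17.6 CPM against 69.1, 42.4 and 44.5 (-1.42 ± 0.19, adjusted p = 3.64e-06), and its partner ALOX5AP at 168, 185 and 217 against 512, 337 and 327 (-1.04 ± 0.14, adjusted p = 5.64e-06). Neither of these lower genes passed on early stimulation (-0.02 and 0.36). In all 3 of 12 genes of the pathway were higher and 3 lower, beside 14.7% and 29.7% of the 6599 genes, or 5 lower without Early ACT 1.

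Many immediate-early factors were lower in Late CTL, with 15 of 22 lower, 2 higher and a median of -0.52. Of the 6599 genes 29.7% were lower and 14.7% higher. On early stimulation 3 of the 22 had risen and 3 fallen, beside 7.36% and 3.46% of the 6599 genes. The lower count was 9 with only the 6 libraries fitted, and the higher count was 1 without Late CTL 2 or Early ACT 3. FOS, an AP-1 subunit, was at 131, 153 and 138 CPM in Late CTL, 471, 464 and 446 in Early ACT and 542, 574 and 576 in Early CTL (-1.71 ± 0.11, adjusted p = 2.45e-11). The AP-1 members FOSL2 and JUNB were lower too (-0.73 and -0.78). MYC, a growth regulator, was at 84.5, 88.5 and 90.002 CPM in Late CTL, 94.1, 86.6 and 90.8 in Early ACT and 56.5, 62.3 and 56.1 in Early CTL (95% interval -0.28 to 0.20), and MAFF, a small bZIP factor, was also within 2-fold (-0.19). FOSL1 was within 2-fold (-0.13 ± 0.11, adjusted p = 0.359) and passed as lower without Early ACT 1 (adjusted p = 0.0496). EGR2, a factor of macrophage differentiation, was higher, at 107, 120.4 and 116 CPM against 89.9, 82.5 and 75.9 (0.48 ± 0.12, adjusted p = 0.00341). In Early CTL EGR2 was at 97.0, 95.1 and 114 CPM, and its difference between Late CTL and Early CTL did not pass (0.17, adjusted p = 0.279).

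**Figure D4:**
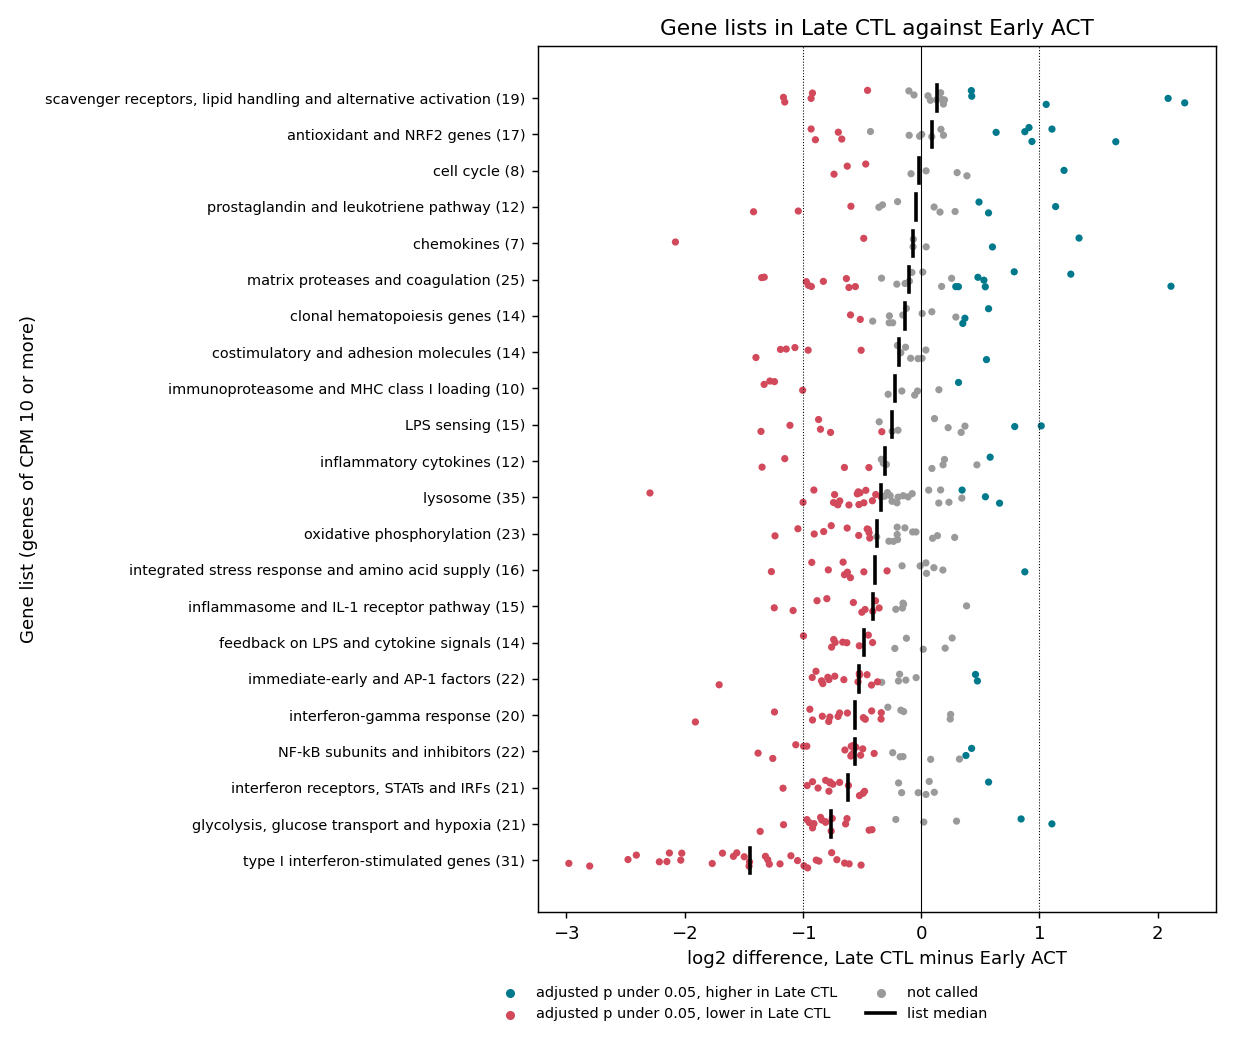
Log2 difference of Late CTL minus Early ACT for each gene of the 22 pathway lists, with list medians as bars, dotted lines at -1 and 1, and numbers of genes in brackets. The type I interferon-stimulated genes have the lowest median (-1.45) and the scavenger receptor and lipid list the highest (0.13).

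Of 16 integrated stress response and amino acid supply genes, 15 had risen on early stimulation, beside 7.36% of the 6599 genes. In Late CTL 11 were above Early CTL, beside 18.5%. Late CTL was lower than Early ACT for 9 of the 16, higher for 1 and within 2-fold for 12 (of the 6599 genes 29.7%, 14.7% and 74.1%), with a median of -0.39. ASNS, asparagine synthetase, was at 42.9, 39.1 and 40.5 CPM in Late CTL, 27.5, 48.4 and 40.8 in Early ACT and 14.8, 16.3 and 10.5 in Early CTL (0.04 ± 0.18, 95% interval -0.33 to 0.41). The endoplasmic reticulum stress genes XBP1 and HSPA5 were within 2-fold, XBP1 at 1148, 1135 and 1219 CPM in Late CTL, 1269, 1058 and 1068 in Early ACT and 658, 669 and 714 in Early CTL. TRIB3, a pseudokinase target of ATF4, was lower in Late CTL than in both early groups, at 45.1, 48.9 and 61.6 CPM in Late CTL, 139, 121 and 117 in Early ACT and 76.6, 90.6 and 78.9 in Early CTL (-1.27 ± 0.14, adjusted p = 2.44e-07). CHAC1, which breaks down glutathione, and SESN2, a nutrient sensor, lay partway between the early groups (-0.65 and -0.66 against Early ACT, 0.69 and 0.41 against Early CTL).

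Most genes of glycolysis were lower in late resting cells. Of 21 genes of glycolysis, glucose transport and hypoxia 16 were lower, 2 higher and 3 did not pass, with a median of -0.76. Of the 6599 genes 29.7% were lower and 14.7% higher. On early stimulation 2 of the 21 had risen, near the 7.36% of the 6599 genes. GAPDH was at 1042, 1047 and 1283 CPM in Late CTL, 2677, 1918 and 1904 in Early ACT and 2179.5, 2139.9 and 2262 in Early CTL (-0.95 ± 0.13, adjusted p = 3.08e-06). Early ACT 1 held the highest GAPDH level, and the other Early ACT libraries lay below Early CTL. HK3, a hexokinase, and PGK1 were lower (-1.36 and -0.92), as was HILPDA, a hypoxia-induced lipid droplet protein, at 1.51, 2.12 and 2.43 CPM against 17.1, 11.5 and 12.1 (-2.66 ± 0.30, adjusted p = 2.40e-07). SLC2A3, a glucose transporter, was within 2-fold, at 3519, 3542 and 3137 CPM in Late CTL and 3049, 3497 and 3491 in Early ACT (95% interval -0.19 to 0.23). SLC16A1, a monocarboxylate transporter, was higher (1.11 ± 0.26, adjusted p = 0.00207), and SLC16A3, another lactate transporter, lower (-0.84). Of 23 oxidative phosphorylation genes 11 were lower and none higher, beside 29.7% and 14.7% of the 6599 genes, with a median of -0.38. With only the 6 libraries fitted 6 of the 23 were lower, as were 1302 of the 6599 genes.

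Antioxidant genes held both directions. Of 17 genes 6 were higher, 4 lower and 7 did not pass, beside 14.7% higher and 29.7% lower of the 6599 genes. No gene of the list had passed on early stimulation. NFE2L2, which encodes the factor NRF2, was at 1414, 1519.8 and 1492 CPM in Late CTL, 751, 1014 and 1084 in Early ACT and 761, 814 and 829 in Early CTL (0.63 ± 0.12, adjusted p = 0.000262). The NRF2 targets NQO1, GCLM, SRXN1 and SLC7A11 were higher. NQO1, a quinone reductase, was at 37.8, 28.6 and 29.1 CPM against 5.94, 11.8 and 11.01 (3.13-fold, 1.65 ± 0.20, adjusted p = 7.73e-07), and GCLM, a subunit of the enzyme that starts glutathione synthesis, at 110.2, 122 and 106 against 47.05, 54.7 and 54.6 (1.11 ± 0.12, adjusted p = 2.36e-07). SRXN1, which repairs peroxiredoxins, and SLC7A11, the cystine importer, differed by 0.91 and 0.88. HMOX1, heme oxygenase, which NRF2 also regulates, was lower, at 33.8, 40.7 and 55.2 CPM against 95.1, 79.1 and 76.4 (-0.93 ± 0.16, adjusted p = 9.12e-05). FTH1, the ferritin heavy chain, was lower as well (-0.70), and KEAP1, the NRF2 inhibitor, was within 2-fold (95% interval -0.28 to 0.29). The authors' deposited tables place NFE2L2 on chromosome 12 from 64270126 to 64355097, NQO1 on chromosome 20 from 54148310 to 54168539 and GCLM on chromosome 1 from 94551082 to 94570927.

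**Figure D5:**
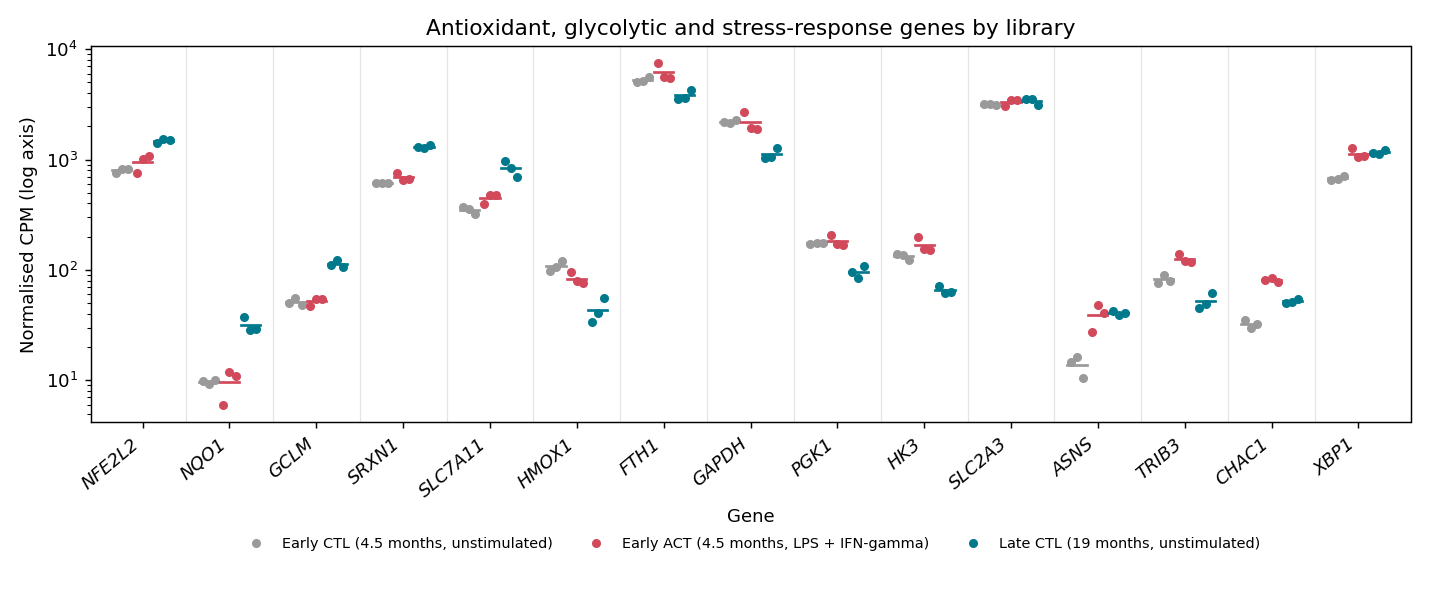
Normalised CPM (log axis) of 15 antioxidant, glycolytic and stress-response genes in each library of Early CTL, Early ACT and Late CTL, with lines for group means. Late CTL libraries lie above both early groups from NFE2L2 to SLC7A11 and below them from HMOX1 to HK3, while ASNS, CHAC1 and XBP1 lie above Early CTL in both Late CTL and Early ACT.

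Scavenger, lipid and lysosomal genes also held both directions. Of 19 scavenger receptor, lipid and alternative activation genes 5 were higher and 5 lower, beside 14.7% and 29.7% of the 6599 genes. The higher count was 3 without Late CTL 2 or Early ACT 2. The gene named FABP4, a fatty acid carrier, was at 8.83, 12.9 and 11.4 CPM in Late CTL and 2.48, 2.63 and 2.05 in Early ACT (2.23 ± 0.29, adjusted p = 3.00e-06). The authors' deposited tables place it on chromosome 1 from 30440685 to 30447695. Its identity was not checked further, so the name is uncertain. GPNMB, a glycoprotein of lysosomal stress, was at 36.8, 35.3 and 29.7 CPM against 10.2, 18.2 and 18.6 (1.06 ± 0.18, adjusted p = 8.82e-05). TREM2, a lipid receptor, was lower, at 124, 129.8 and 125 CPM in Late CTL, 324, 256 and 265 in Early ACT and 175, 162 and 165 in Early CTL (-1.15 ± 0.12, adjusted p = 7.77e-08). ABCA1, a cholesterol exporter, was within 2-fold (0.08). Of 35 lysosomal genes 18 were lower and 3 higher, beside 29.7% and 14.7% of the 6599 genes. CTSZ, a cathepsin, was at 2.52, 2.39 and 2.73 CPM against 16.6, 11.9 and 10.2 (-2.29 ± 0.28, adjusted p = 8.10e-07), while ATP6V1B2, a proton pump subunit, was higher (0.54) and LAMP1, a lysosomal membrane protein, was within 2-fold (-0.08). Of 8 cell cycle genes at the floor 1, the replication helicase subunit MCM4 (1.21), was higher and 3 were lower, with 2 higher without Early ACT 1. These are small counts near the shares of the 6599 genes.

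The largest differences among called genes with a name and no overlap of libraries were those of 12 genes in each direction. The lower 12 were OASL, IFIT2, OAS2, S100A9, HELZ2, HILPDA, IFI6, NEURL3, IFIT3, S100A8, CTSZ and IFIT5, with log2 differences from -2.98 to -2.21. The higher 12 were FLG2, AKR1B10, RAI14, ARHGAP20, FABP4, HSPA4L, TSLP, GATM, SPP1, DKK2, APOE and RND3, from 5.46 to 2.07. All of the higher 12 were under 10 CPM on average in Early ACT. They thus reached the floor in Late CTL alone, and that they differ is no result by itself. The same holds for CTSZ, HILPDA and NEURL3, which reached it in Early ACT alone. The name FABP4 is uncertain, as given above. FLG2, a filaggrin family gene named by the authors' tables, was at 11.6, 7.29 and 11.7 CPM in Late CTL and 0, 0.255 and 0.256 in Early ACT, and AKR1B10, an aldo-keto reductase regulated by NRF2, at 18.9, 6.49 and 14.1 against 0.495, 0 and 0.683. Both were close to 0 in Early ACT, and the standard errors of their differences were large (5.46 ± 0.56 and 5.08 ± 0.62). Summed counts of low-abundance genes were higher in Late CTL, as given above. GATM, an enzyme of creatine synthesis, was at 16.1, 19.2 and 17.9 CPM against 3.96, 3.91 and 4.18 (2.14 ± 0.26, adjusted p = 9.19e-07), and HSPA4L, a heat shock protein, at 25.5, 23.3 and 13.8 against 1.98, 5.35 and 5.03 (2.20 ± 0.26, adjusted p = 6.78e-07). NEURL3, an antiviral ubiquitin ligase induced by inflammation, averaged 4.19 ± 1.14 CPM in Late CTL, 23.2 ± 3.98 in Early ACT and 7.16 ± 1.5 in Early CTL (SD, n = 3 each; -2.47 ± 0.28, adjusted p = 2.79e-07).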

How the data were processed

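RNA was sequenced from 12 libraries of sorted macrophages, 3 in each of 4 groups, and 6 of them form the comparison. Per the labels, cDNA was made with SMART-Seq v4, a kit that does not mark strand, and libraries with Nextera XT. The table deposited by the authors holds unscaled whole-number read counts for each gene in each library. The submitters' processing notes name build Mmul_8.0.1 and bcl2fastq, while aligner and counter are not given in those sources. Genes with near-identical copies or overlapping neighbours are therefore uncertain. The 2 tables of comparisons from the authors were used for gene names and positions only. Of 32386 genes 15643 had a name, 428 of them from the authors' tables alone (12.2% of the counts fell in unnamed genes). CXCL8, ISG15, GBP1 and INHBA were among those without a usable name. Promoter motifs were not analysed here, and some genes of the lists are not reported here.

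Counts of all 12 libraries were tested with edgeR 4.0.16 (R 4.3.3, limma 3.58.1): TMM scaling, the filterByExpr filter by group, a coefficient per group and the robust quasi-likelihood F test, with Benjamini-Hochberg adjustment over 11826 genes and a threshold of 0.05. Standard errors were taken as the size of the log2 difference divided by the square root of F, and 95% intervals use the test's degrees of freedom. CPM are counts per 1000000 of the TMM-scaled library size, for both the floor of 10 and the printed levels. The code was tested on simulated data. Totals were 3910680 to 12972505 counts, and without molecular identifiers they give counting precision only. Genes named are the 12 with the largest difference in each direction, up to 5 members of each list per direction by smallest p, up to 4 within 2-fold, and a fixed list of genes; single markers of other cells and genes at the edge of the floor were named after their values were seen. List members named only by the authors' tables are described but not counted. The members, the 22 pathway lists and the 11 marker lists were chosen with earlier results of these data known. Alternatives were other scalings, DESeq2 1.42.0, no low-count filter, the 6 libraries alone, a replicate block, other floors and leaving out each library. No gene list was given a set test.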

Additional observations from a re-analysis of the deposited data

How the results depend on the processing

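Across 6599 genes, upper-quartile scaling gave 1459 higher genes against 971, and 1532 lower against 1963. With only the 6 compared libraries fitted, 627 were higher and 1302 lower. That fit also left fewer lower genes in 5 lists, namely 1 chemokine, 4 inflammasome, 9 immediate-early, 6 oxidative phosphorylation and 1 cell cycle. It left 1 higher clonal hematopoiesis gene, as did leaving out the low-count filter (1). Upper-quartile scaling gave 6 lower inflammasome genes. Adding genes named only by the authors' tables gave 14 lower feedback genes. Leaving out a library in turn gave 3 to 5 lower prostaglandin and leukotriene genes. The other leading list counts stayed within 1.5 times. The 6-library fit rests on fewer libraries, and the cause of these moves was not tested. The replicate block gave 921 higher and 1875 lower genes, and took the call from 4 named genes. Deviations from the group mean correlated by -0.07 to 0.05 between same-numbered libraries, and by -0.09 to 0.10 between libraries of different number. With 3 libraries a group, such correlations cannot show whether same-numbered libraries share an animal or a batch. Of 277 named genes 182 were called, 156 of these kept their call and direction in all 12 alternatives that gave them a value, and no call changed sign. The 31 interferon-stimulated genes had 31 lower with upper-quartile scaling and 31 with only the 6 libraries. Depth limits genes near 10 CPM, where the smallest library holds few counts a gene.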
